A study of Rattus norvegicus with 24 samples.

Results

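Brains of 2 rat models of hyperactivity were set directly side by side: SHR, the spontaneously hypertensive rat, whose hyperactivity is inherited, and Sprague-Dawley rats exposed to polychlorinated biphenyls (PCB), here called SDpcb. The comparison used the 6 SHR and 6 SDpcb arrays of a series of 24, 1 array for each of 6 regions in each group: cerebellar vermis, hippocampus, prefrontal cortex, dorsal and ventral striatum, and a midbrain sample of substantia nigra and ventral tegmental area (SN/VTA). All rats were male and aged postnatal day 55 to 65. SHR tissue came from a group of 8 rats and SDpcb tissue from a group of 4, and unexposed Sprague-Dawley (SD) and Wistar-Kyoto (WKY) rats, 8 of each, gave the other 12 arrays, whose values are set beside as reference levels. The 6 SHR arrays were each paired with the SDpcb array of the same region. The dose and route of the PCB, and whether RNA was pooled, are not given in the sources used here. Neither strain and exposure, nor animals and group, can be told apart in this design: SHR and SDpcb differ in strain as well as in exposure, and a p-value here measures how far the 6 regions of the same rats agree, not how far animals do.

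As background, SHR was bred from WKY rats for high blood pressure and is widely used as a genetic model of attention-deficit/hyperactivity disorder, with a large literature on its dopamine system. PCBs are persistent chlorinated pollutants. Congeners of flat shape bind the dioxin receptor, while others disturb ryanodine receptors, the calcium channels of the endoplasmic reticulum, and several act on thyroid hormone transport and on dopamine content.

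Signals of the 2 groups were not on the same footing. The median probe set signal lay from 132 to 178 in the SHR arrays and from 89.0 to 126 in the SDpcb arrays, with no overlap, and 19.8 to 27.2% against 25.7 to 40.7% of probe sets were under a signal of 50. The 3′ to 5′ log2 ratio of the Gapdh control probe sets, which rises as RNA shortens, was 1.28 to 2.03 in SHR and 0.816 to 1.44 in SDpcb. Other controls did not go that way. The actin ratio had a median of 3.73 in SHR and 3.73 in SDpcb, and the hexokinase ratio of 2.07 in SHR and 2.56 in SDpcb. The part these measures play in any difference was not tested. Every difference was therefore computed on log2(signal + 1) as deposited and again after quantile normalization, and is said below to have passed only where both fits gave limma's adjusted p (Benjamini-Hochberg) under 0.05 with the same sign. Where leaving out 1 region ended that, the adjusted p given is the higher of both scales. The median difference over 9132 genes tested was 0.16 as deposited, 0.061 after quantile normalization, 0.069 after cyclic loess and -0.47 with each array centred on its median, so the sign of a small difference can depend on the scale. Directions of gene groups are given relative to the median of all genes on the same scale.

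**Figure D1:**
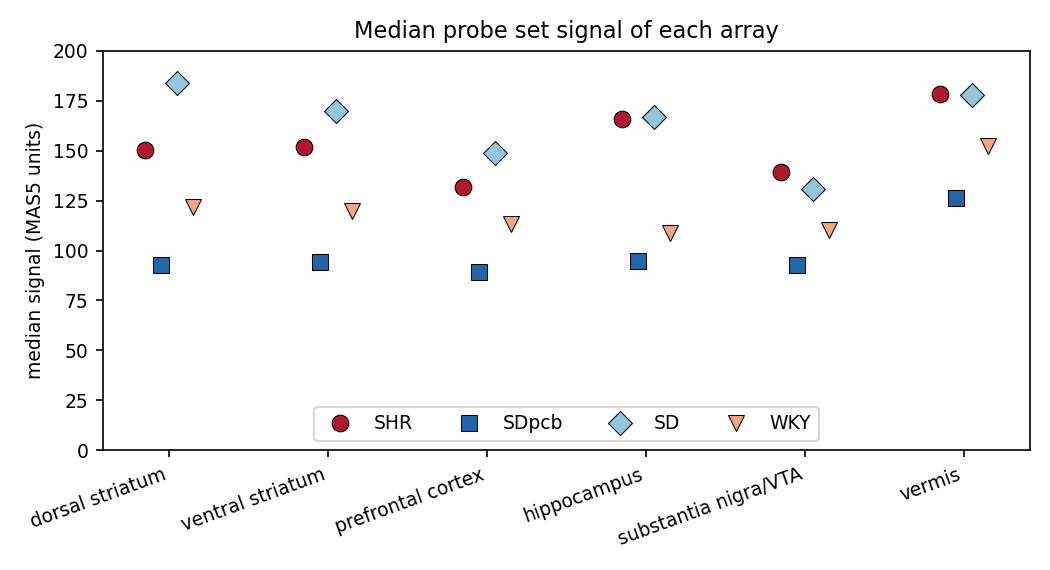
Median signal (MAS5 units) of each of the 24 arrays, by region on the x axis, with 1 point per array and the 4 groups by shape and colour. In every region the SDpcb square lies under the SHR circle, and the SDpcb vermis array, at 126, lies above the other 5 SDpcb arrays.

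Region labels were checked against marker genes. The striatal arrays of both groups held the highest summed signal of 14 medium spiny neuron markers (76292 in SHR and 74350.2 in SDpcb dorsal striatum). Pcp2, a Purkinje cell gene, stood at 13406 and 9371 in vermis, and Gabra6, a granule cell receptor subunit, at 17285 and 19444. In SDpcb, SN/VTA was low in dopamine neuron markers. Th, which makes the dopamine precursor, had a signal there of 3742 in SHR but 217 in SDpcb, against 2222 in SD and 1367 in WKY, and the dopamine transporter Slc6a3 stood at 8411 and 955. The 11 midbrain dopamine neuron markers summed to 35838 in the SHR SN/VTA array and 11329.8 in the SDpcb one, whose group had its highest sum in the vermis (18318). The vermis sum was high in the other groups too, at 13841 in SHR, 18787 in SD and 15125 in WKY. Outside vermis and SN/VTA, the SDpcb arrays summed to 3062 to 4941. The 11 hippocampal neuron markers summed to 30173 in hippocampus and 22623 in vermis of SHR, but to 28034 and 29621 in SDpcb, where vermis was the higher, as it was in WKY.

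Hypothalamic transcripts were also found in the SN/VTA arrays of both models. The 13 hypothalamic markers summed to 27667 in SHR and 21549 in SDpcb, against 4133 in SD and 2054 in WKY. The oxytocin gene Oxt stood at 9747 in SHR and 1283 in SDpcb, against 156 in SD and 58.6 in WKY, and Pmch, which encodes melanin-concentrating hormone, at 9765 in SHR and 13017 in SDpcb, against 2447 in SD and 1038 in WKY. Pomc, another hypothalamic marker, was near the bottom of the scale in all 4 (6.80 to 9.10). With the SN/VTA pair left out, 6210 probe sets passed as deposited and 4204 on both scales, in place of the 7211 and 5228 given next. Without the hippocampus pair the counts were 5875 and 4179, and without the vermis pair 7011 and 5148.

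As deposited, 7211 of 15521 probe sets (46.5%) differed between SHR and SDpcb, 4321 higher (27.8%) and 2890 lower (18.6%) in SHR. After quantile normalization 39.7% of the same probe sets passed, 19.6% higher and 20.1% lower. Of the deposited calls 59.9% were higher. With the filter set on each scale's own values, the share of calls that were higher was 49.5% after quantile normalization, 49.9% after loess and 9.01% after median centring. On both scales 5228 probe sets passed (33.7%), 17.9% higher and 15.8% lower. Of genes, 48.2% passed as deposited, 39.6% after quantile normalization and 34.9% on both. By gene, each read through its brightest probe set, 1959 genes (21.5%) were higher and 1224 (13.4%) lower in SHR on both scales, and the 21.5% and 13.4% are the background for every gene group below. The size of the difference was at least 1 on the log2 scale after quantile normalization for 574 of them, 368 higher and 206 lower. Among the deposited calls the share higher in SHR went from 88.6% in the dimmest 25% of probe sets to 33.7% in the brightest 25%, and on both scales from 73.2% to 40.9%. Values that follow a gene are its log2 difference, SHR minus SDpcb, as deposited and then after quantile normalization, each ± SE. The SE is that of the limma fit over n = 6 regions, which also draws on the spread of other probe sets.

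The 15 largest rises among genes with the same sign in all 6 regions ran from 1.57 to 2.10 after quantile normalization (2.97- to 4.29-fold), and in 12 of the 15 no SDpcb array reached the lowest SHR array, where 9.13% of all genes tested were separated that way. These genes were chosen for large differences in the same arrays, so their separation follows in part from the choice. Harbi1, a nuclease-like protein derived from a transposase, had signals from 221 to 568 in SHR (median 379.7) and from 8.84 to 114 in SDpcb (median 79.4), with no overlap. Its difference was 2.66 ± 0.31 and 2.10 ± 0.33, adjusted p = 1.03e-04 and 5.32e-04, and its SDpcb vermis array, at 8.84, was far below the other 5. Another Harbi1 probe set, with a mean signal of 45.4, went the other way (-1.81 and -2.75) and was too dim to test. Dusp11, a phosphatase that acts on RNA 5′ ends, ran from 437 to 1031 in SHR (median 866) and from 131 to 211 in SDpcb (median 166), with no overlap. It differed by 2.26 ± 0.16 and 2.01 ± 0.17, adjusted p = 7.72e-06 and 2.11e-05. Eif4e3, a cap-binding protein of the eIF4E family, ran from 276 to 795 in SHR (median 532) and from 83.8 to 152 in SDpcb (median 96.9), with no overlap. Its difference was 2.28 ± 0.20 and 1.83 ± 0.20, adjusted p = 1.96e-05 and 9.35e-05. Zfhx2, a homeobox zinc-finger transcription factor, differed by 2.57 ± 0.28 and 1.94 ± 0.29, and Vof16 by 2.33 ± 0.29 and 2.06 ± 0.27.

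Among the rises were genes of synaptic traffic and of protein turnover. Dynamin 1 (Dnm1), the GTPase that pinches off vesicles during synaptic endocytosis, ran from 3762 to 7787 in SHR (median 5645) and from 1029 to 3534 in SDpcb (median 1678), with no overlap. SHR was higher in each region, and the difference was 1.62 ± 0.17 and 1.77 ± 0.17, adjusted p = 5.53e-05 and 4.03e-05. Hgs, which sorts ubiquitinated receptors on endosomes, differed by 1.77 ± 0.21 and 1.57 ± 0.21, and Cabp1, a neuronal calcium sensor, by 2.37 ± 0.24 and 1.73 ± 0.21, its groups overlapping. Adrm1, the ubiquitin receptor of the proteasome, ran from 746 to 1368 in SHR (median 997) and from 221 to 379 in SDpcb (median 349), with no overlap. Its difference was 1.67 ± 0.18 and 1.58 ± 0.17, adjusted p = 6.89e-05 and 8.56e-05. Elongin B (Elob), a subunit of ubiquitin ligases, differed by 1.46 ± 0.14 and 1.59 ± 0.14, and Uqcc2, an assembly factor of respiratory complex III, by 1.54 ± 0.14 and 1.58 ± 0.14. The remaining rises were Gpd1, glycerol-3-phosphate dehydrogenase (1.75 ± 0.22 and 1.69 ± 0.21), Safb2, a nuclear scaffold protein (1.91 ± 0.19 and 1.71 ± 0.17), Ift140, a transport protein of cilia (1.76 ± 0.17 and 1.59 ± 0.16), and the clock gene Per1, described with the clock genes below. A second tested Safb2 probe set differed by 0.86 and 0.43, past the threshold as deposited alone. Cabp1 was under the filter on at least 1 scale without prefrontal cortex, and so not tested there.

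The 15 largest falls were larger than the rises, from -3.35 to -2.23 (10.2- to 4.69-fold lower in SHR), and 13 of the 15 had no overlap between groups, against 3.46% of all genes tested. As with the rises, that separation follows in part from the choice of genes. Pop5, a protein subunit of RNase P and RNase MRP, ran from 204 to 289.8 in SHR (median 261) and from 1279 to 2614 in SDpcb (median 2309.8), with no overlap. SHR was low in all 6 regions, and the difference was -3.10 ± 0.15 and -3.16 ± 0.15, adjusted p = 3.72e-07 and 7.49e-07. A second Pop5 probe set, at a lower signal, differed by 0.14 and -0.12 and did not pass. Nt5dc1, related to the 5′-nucleotidases, ran from 81.5 to 240.2 in SHR (median 177) and from 1089 to 1670.3 in SDpcb (median 1263), with no overlap. It differed by -2.995 ± 0.21 and -3.13 ± 0.21, adjusted p = 5.70e-06 and 7.52e-06. Prune1, a phosphoesterase, ran from 114 to 187 in SHR (median 136) and from 781 to 1171 in SDpcb (median 959), with no overlap. Its difference was -2.77 ± 0.17 and -2.99 ± 0.19, adjusted p = 1.91e-06 and 5.83e-06. Clca1, a secreted regulator of chloride channels, differed by -2.95 ± 0.47 and -3.35 ± 0.48, its lowest SHR signals being 7.27 in ventral striatum and 16.9 in prefrontal cortex.

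Both an RNA-binding protein and a translational regulator stood among the falls. Elavl1 (HuR), which binds AU-rich elements of mRNA, ran from 930.4 to 1555 in SHR (median 1266) and from 5667 to 8898 in SDpcb (median 7654), with no overlap. SHR was low in every region, and the difference was -2.53 ± 0.12 and -2.504 ± 0.14, adjusted p = 3.72e-07 and 2.08e-06. Of its other probe sets, at lower signals, one differed by -0.92 and -0.99 and passed, and the other by 1.05 and 0.70 and did not pass on both scales. Cpeb3, which controls translation of synaptic mRNAs, ran from 179 to 485 in SHR (median 383) and from 1235 to 2205 in SDpcb (median 1832), with no overlap. It differed by -2.35 ± 0.19 and -2.35 ± 0.19, adjusted p = 1.23e-05 and 1.55e-05. Dck, the kinase that salvages deoxycytidine, differed by -2.15 ± 0.27 and -2.52 ± 0.25, and a second Dck probe set by -1.87 and -2.25, also past the test. The transcriptional repressor Klf12 differed by -2.28 ± 0.29 and -2.72 ± 0.27, the actin-bundling plastin Pls1 by -2.05 ± 0.38 and -2.49 ± 0.38, the kinase Stk25 by -1.93 ± 0.25 and -2.32 ± 0.26, and Coq10b, a coenzyme Q binding protein, by -2.31 ± 0.23 and -2.31 ± 0.24. Pecam1, an adhesion molecule of blood vessels, differed by -2.196 ± 0.31 and -2.39 ± 0.33. The last of the falls were Ccdc71l (-1.98 ± 0.28 and -2.31 ± 0.29), the axonal adhesion protein Cntn4 (-1.88 ± 0.48 and -2.24 ± 0.51) and the intramembrane protease Sppl2a (-2.17 ± 0.28 and -2.23 ± 0.28). Klf12 was under the filter on at least 1 scale without vermis, and so not tested there.

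**Figure D2:**
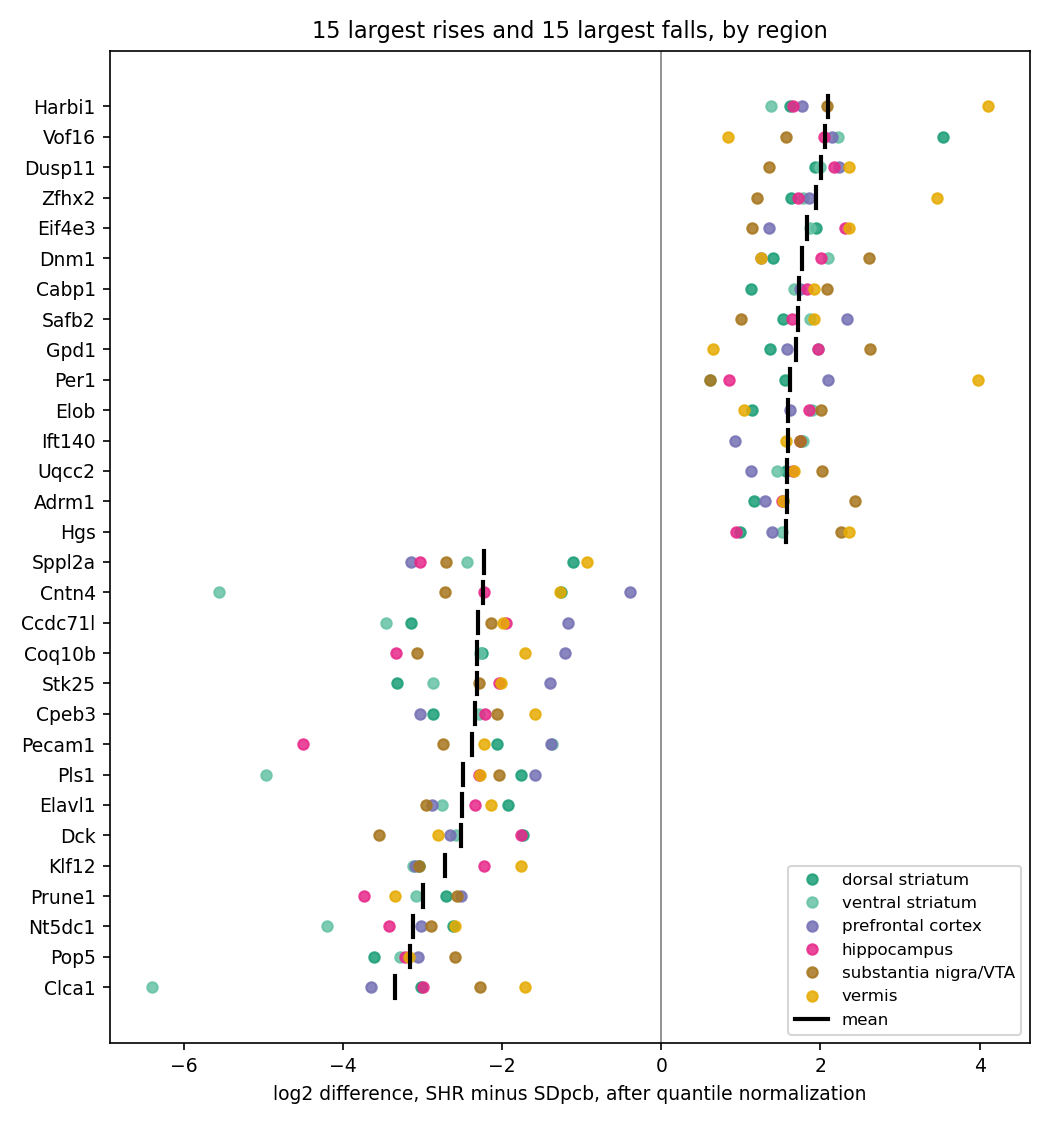
Log2 difference, SHR minus SDpcb, after quantile normalization (x axis) for the 15 largest rises and 15 largest falls (y axis), with 1 point per region and a bar for the mean. All points of a gene lie on 1 side of 0 by the rule that chose them, and points far from the rest of their gene include the vermis point of Harbi1 (4.11) and Per1 (3.99) and the ventral striatum point of Clca1 (-6.40), Cntn4 (-5.56) and Pls1 (-4.97).

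Probe sets of one gene did not always give the same answer. Of 695 genes past the test that had another tested probe set, 200 had another that passed in the same direction, 450 had none other that passed, and 45 had one that passed in the opposite direction. Probe sets under the filter were left out of these counts, and some of them, as at Harbi1, Setdb1 and Creb1, went the other way. The probe set of each gene is the brightest of those that the annotation assigns to that gene alone.

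SD and WKY levels were then set beside the 574 genes with a difference of at least 1, as descriptions with no test. In 61 genes SHR lay at least 1 log2 unit to one side of the other 3 groups, in 19 genes SDpcb did, and in 19 SHR and WKY lay together against both Sprague-Dawley groups. The remaining 475 showed none of these patterns. SD was nearer to SDpcb than to SHR in 416 of the 574 genes, in 9 of the 15 largest rises and in 15 of the 15 largest falls. WKY was also nearer to SDpcb in 335 of the 574 genes, in 6 of the 15 rises and in 9 of the 15 falls. Among all 3183 genes past the test on both scales, SD was nearer to SDpcb in 2100 and WKY in 1979. The part of strain in these counts was not tested. Of the falls, 9 set SHR alone apart and 6 set SHR and WKY apart together.

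Genes at which SHR alone stood apart included Nt5dc1, with mean log2 levels after quantile normalization of 7.14 in SHR, 10.27 in SDpcb, 10.26 in SD and 9.98 in WKY. Elavl1 stood at 10.30 in SHR, 12.80 in SDpcb, 12.49 in SD and 12.40 in WKY, and Cpeb3 at 8.32 in SHR, 10.67 in SDpcb, 10.47 in SD and 10.74 in WKY. The transcription factor Creb1, which cyclic AMP signalling activates, stood at 7.95 in SHR, 9.67 in SDpcb, 10.14 in SD and 9.05 in WKY, and differed between SHR and SDpcb by -1.64 ± 0.21 and -1.72 ± 0.21. Adrm1 was the only one of the 15 rises in this class, at 9.98 in SHR, 8.40 in SDpcb, 8.59 in SD and 8.51 in WKY. SHR and WKY lay together at Pop5, with 7.84 in SHR, 10.995 in SDpcb, 11.06 in SD and 8.07 in WKY, and Coq10b stood at 8.45 in SHR, 10.76 in SDpcb, 11.07 in SD and 9.11 in WKY. Isca1, an assembly protein of iron-sulphur clusters, was high in the same 2 strains, at 13.36 in SHR, 11.81 in SDpcb, 12.04 in SD and 13.56 in WKY, and differed between SHR and SDpcb by 1.42 ± 0.12 and 1.55 ± 0.11. A second Isca1 probe set differed by 0.0037 and -0.039 and did not pass.

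The 19 genes at which SDpcb alone stood apart were 4 with SDpcb highest and 15 with SDpcb lowest. Dusp11 stood at 9.63 in SHR, 7.62 in SDpcb, 8.64 in SD and 8.84 in WKY, and Eif4e3 at 8.92 in SHR, 7.10 in SDpcb, 8.35 in SD and 9.03 in WKY. Macf1, which links microtubules to actin, stood at 12.80 in SHR, 11.44 in SDpcb, 12.61 in SD and 12.74 in WKY, and Dync1h1, the heavy chain of cytoplasmic dynein, at 11.18 in SHR, 9.92 in SDpcb, 11.02 in SD and 11.04 in WKY. The ubiquitin ligase Mycbp2, which shapes axons, stood at 11.54 in SHR, 10.34 in SDpcb, 11.63 in SD and 11.69 in WKY, and its second tested probe set differed between SHR and SDpcb by 0.88 and 0.95 and passed. Reln, the secreted signal that guides neuronal layering, stood at 11.001 in SHR, 9.93 in SDpcb, 10.99 in SD and 11.11 in WKY, the neurotrophin receptor Ntrk3 at 8.56 in SHR, 7.02 in SDpcb, 8.10 in SD and 8.31 in WKY, the ribosomal protein Rpl6 at 12.70 in SHR, 11.32 in SDpcb, 12.39 in SD and 12.44 in WKY and the clock gene Per2 at 10.75 in SHR, 9.66 in SDpcb, 10.93 in SD and 10.89 in WKY. In each of them SHR, SD and WKY lay closer to each other than any did to SDpcb. A second tested Reln probe set passed as deposited alone, as given with the interneuron markers below. Median array signal was lowest in SDpcb as well, and its part in these differences was not tested.

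**Figure D3:**
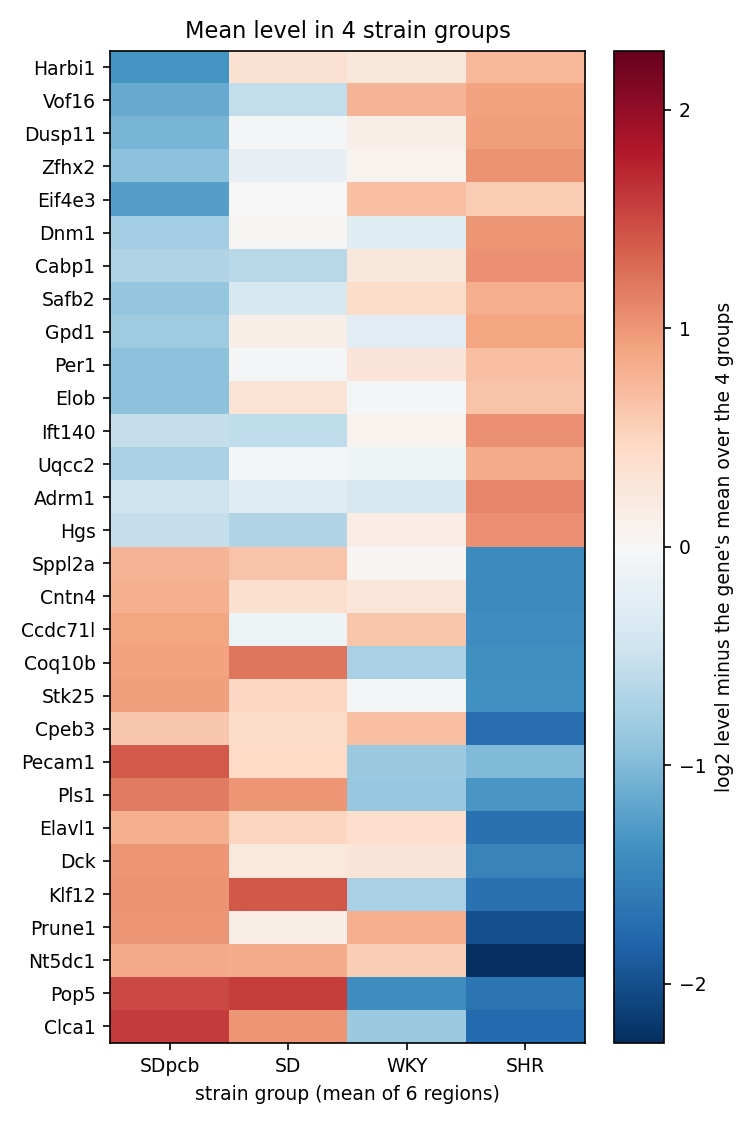
Mean log2 level after quantile normalization in each of the 4 groups (columns, n = 6 regions each), minus the gene's mean over the groups, for the 15 largest rises and 15 largest falls (rows), red above and blue below that mean. The falls Pop5, Clca1, Klf12, Pls1, Pecam1 and Coq10b are blue in WKY as well as SHR, while Nt5dc1, Prune1, Elavl1 and Cpeb3 are blue in SHR alone.

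Subunits of the mitochondrial respiratory chain had the largest share higher in SHR of the gene lists with 10 or more tested members. The chain passes electrons through complexes I to IV and drives ATP synthase. Of 30 tested subunits 17 were higher and 0 lower on both scales (9 higher without hippocampus, 11 higher without SN/VTA), against 21.5% and 13.4% of all genes, and the median difference was 0.35 as deposited and 0.48 after quantile normalization, above the median of all genes by 0.19 as deposited and 0.42 after quantile normalization. Ndufs7, a subunit of complex I, ran from 1623 to 3557 in SHR (median 2448) and from 861 to 1225 in SDpcb (median 998), with no overlap. SHR was higher in each region, and the difference was 1.21 ± 0.14 and 1.31 ± 0.14, adjusted p = 8.61e-05 and 8.23e-05. Ndufb3, also of complex I, ran from 6112 to 7220.4 in SHR (median 6682) and from 2991 to 4910.3 in SDpcb (median 3436), with no overlap. It differed by 0.89 ± 0.12 and 1.05 ± 0.11, adjusted p = 1.56e-04 and 8.19e-05. Uqcrh of complex III differed by 0.77 ± 0.12 and 0.91 ± 0.12, and Atp5po of ATP synthase by 0.99 ± 0.15 and 1.14 ± 0.14, while a second Atp5po probe set differed by -0.058 and -0.27 and did not pass. The SDpcb levels of Ndufb3 had a median of 3436, below 5137 in SD and 4397 in WKY.

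Genes of protein synthesis and breakdown were also listed. Of 19 cytosolic ribosomal proteins tested, 8 were higher and 0 lower on both scales. Their median stood above that of all genes by 0.011 as deposited and 0.24 after quantile normalization. Rpl6, a large-subunit protein, ran from 5818 to 7173 in SHR (median 6104) and from 2043 to 3016 in SDpcb (median 2830.2), with no overlap. SDpcb was low in every region, and the difference was 1.23 ± 0.10 and 1.38 ± 0.10, adjusted p = 1.36e-05 and 1.17e-05. Rps15 differed by 0.94 ± 0.11 and 1.09 ± 0.11, Rpl35 by 0.93 ± 0.14 and 1.09 ± 0.14 and Rpl7 by 0.44 ± 0.087 and 0.56 ± 0.076. The proteasome, which degrades ubiquitinated proteins, did not move in 1 direction: of 27 subunits tested, 7 were higher and 5 lower on both scales (1 lower without ventral striatum, 3 lower without dorsal striatum, SN/VTA or vermis), and its median lay on either side of the all-gene median by scale (-0.12 as deposited and 0.11 after quantile normalization). The ATPases of its regulatory cap were among those higher in SHR, with Psmc4 at 1.07 ± 0.14 and 1.16 ± 0.14 and Psmc5 at 0.74 ± 0.15 and 0.85 ± 0.16, together with the cap subunit Psmd1 (0.69 ± 0.14 and 0.80 ± 0.14) and the core subunit Psmb3 (0.47 ± 0.13 and 0.59 ± 0.13). Of the outer rings of the core, Psma1 (-0.55 ± 0.12 and -0.43 ± 0.12) and Psma3 (-0.51 ± 0.11 and -0.40 ± 0.11) were lower, both singled out after their values were seen. Psma3 no longer passed on both scales without ventral striatum (limma's adjusted p = 0.0568).

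Of 16 chaperones tested, which fold proteins and respond to stress, 5 were higher and 1 lower on both scales (0 lower without dorsal striatum or ventral striatum, 2 lower without prefrontal cortex). Hspa5 (BiP), the main chaperone of the endoplasmic reticulum, ran from 3789 to 5306 in SHR (median 4523) and from 1750.0 to 3392 in SDpcb (median 2595), with no overlap. The difference was 0.83 ± 0.14 and 0.95 ± 0.13, adjusted p = 5.51e-04 and 2.26e-04. The small heat shock protein Cryab differed by 1.002 ± 0.17 and 1.13 ± 0.17, Dnajb1 by 0.49 ± 0.12 and 0.63 ± 0.12 and the co-chaperone Bag3 by 1.59 ± 0.24 and 1.17 ± 0.24. A second tested Dnajb1 probe set differed by 0.64 and 0.20, past the threshold as deposited alone. Hyou1, another chaperone of the endoplasmic reticulum and not a list member, was lower in SHR and WKY, at 7.30 in SHR, 8.91 in SDpcb, 8.85 in SD and 7.51 in WKY, with a difference of -1.39 ± 0.23 and -1.61 ± 0.21. Of 10 RNA-binding proteins of the Elavl, Cpeb and related families tested, 1 was higher and 4 lower on both scales. Beside Elavl1 and Cpeb3, given above, the splicing regulator Celf4 was lower (-0.81 ± 0.15 and -0.71 ± 0.15), and the neuronal Elavl3 was higher by 0.60 ± 0.15 and 0.57 ± 0.15. A second tested Elavl3 probe set differed by 0.53 and 0.47, past the threshold as deposited alone.

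**Figure D4:**
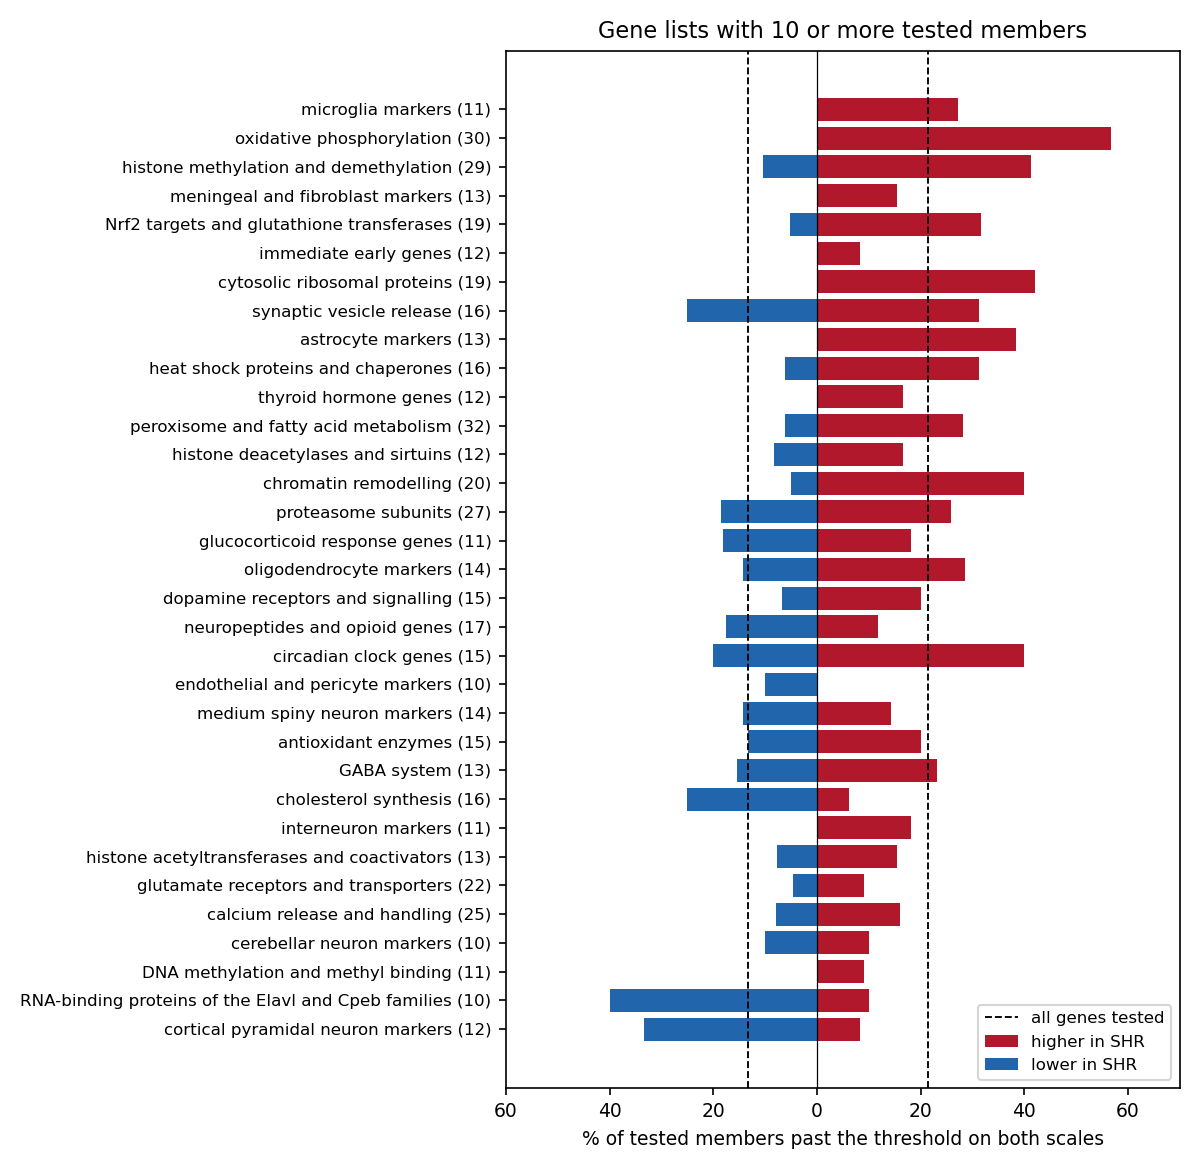
Share of tested members (x axis, %) of each gene list with 10 or more tested members (y axis, members tested in brackets) that passed on both scales, higher in SHR to the right and lower to the left, ordered by median difference. Dashed lines mark the 21.5% and 13.4% of all genes tested; oxidative phosphorylation reaches 56.7% higher, and the Elavl and Cpeb families have 4 of 10 lower.

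Dopamine genes were few among the differences. Dopamine is made by tyrosine hydroxylase and Ddc, cleared by the transporter and broken down by Maoa, and acts in the striatum on D1 and D2 receptors. None of 6 tested synthesis and transport genes passed on both scales (1 lower without dorsal striatum, SN/VTA, vermis or ventral striatum). Maoa differed by -0.51 ± 0.23 and -0.60 ± 0.22, adjusted p = 0.0836 and 0.0459, and Ddc by -0.29 ± 0.29 and -0.87 ± 0.32, adjusted p = 0.429 and 0.0481. Th and Slc6a3 fell under the signal filter and were not tested. The D1 receptor Drd1 had signals from 218 to 4869.9 in SHR (median 354) and from 151 to 6531 in SDpcb (median 496), the groups overlapping. It differed by -0.16 ± 0.20 and -0.28 ± 0.18, adjusted p = 0.525 and 0.232. A second tested Drd1 probe set differed by -1.20 and -1.66, past the threshold on the quantile scale alone. Drd2 ran from 49.4 to 1159.7 in SHR (median 164) and from 34.8 to 1833 in SDpcb (median 66.3), the groups overlapping. Its difference was 0.42 ± 0.33 and -0.086 ± 0.28, adjusted p = 0.316 and 0.826. Downstream, of 15 receptor and signalling genes tested, 3 were higher and 1 lower on both scales. Caly, which interacts with the D1 receptor, ran from 1255 to 2602 in SHR (median 2090.0) and from 539 to 1579.9 in SDpcb (median 990.2), the groups overlapping. It differed by 0.94 ± 0.16 and 1.02 ± 0.16, adjusted p = 5.96e-04 and 5.36e-04. Pde10a, the phosphodiesterase of medium spiny neurons, ran from 889 to 13088 in SHR (median 2232) and from 2191 to 16223 in SDpcb (median 4383), the groups overlapping. Its difference was -0.81 ± 0.13 and -0.76 ± 0.12, adjusted p = 5.16e-04 and 7.33e-04. A second tested Pde10a probe set differed by -0.40 and -0.98, past the threshold on the quantile scale alone. Rasd2 (Rhes), a striatal GTPase, was higher by 0.63 ± 0.15 and 0.58 ± 0.15, and Ppp1r1b (DARPP-32), the phosphatase inhibitor that relays D1 signals, by 0.46 ± 0.15 and 0.49 ± 0.13. Ppp1r1b no longer passed on both scales without vermis, SN/VTA or dorsal striatum (limma's adjusted p up to 0.0611).

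Noradrenaline, serotonin and acetylcholine genes were mostly too dim to test, with 4 of 20 and 2 of 16 on the array above the filter. Htr2c, the serotonin 2C receptor, passed, lower in SHR (-0.57 ± 0.19 and -0.61 ± 0.22). Of the noradrenaline and serotonin genes 0 were higher and 1 lower on both scales (0 lower without prefrontal cortex, SN/VTA or ventral striatum), and of the acetylcholine genes 0 were higher and 0 lower on both scales (1 higher without vermis). The muscarinic receptor Chrm4 differed by 1.20 ± 0.33 and 0.73 ± 0.28, adjusted p = 0.0106 and 0.0556, and Chrm3 by 0.072 ± 0.33 and -0.28 ± 0.34, adjusted p = 0.874 and 0.53. Htr2c no longer passed on both scales without SN/VTA, prefrontal cortex, vermis or ventral striatum (limma's adjusted p up to 0.106).

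Of 22 glutamate receptors and transporters tested, 2 were higher and 1 lower on both scales (2 lower without prefrontal cortex, 3 lower without vermis), a share under the 21.5% and 13.4% of all genes. Grin1, the obligatory subunit of NMDA receptors, ran from 835 to 2064 in SHR (median 1443) and from 296 to 982 in SDpcb (median 572), the groups overlapping. SHR was higher in all 6 regions, by 1.30 ± 0.14 and 1.28 ± 0.13, adjusted p = 6.89e-05 and 6.86e-05. The subunit Grin2c ran from 406 to 1462 in SHR (median 550.1) and from 77.0 to 627 in SDpcb (median 215), the groups overlapping. It differed by 1.45 ± 0.19 and 1.19 ± 0.17, adjusted p = 1.91e-04 and 3.48e-04. Slc1a1, the neuronal glutamate transporter, was lower in SHR (-0.59 ± 0.093 and -0.50 ± 0.088), as was its second tested probe set (-0.65 and -0.92). Of 13 genes of the GABA system, 3 were higher and 2 lower on both scales (1 lower without ventral striatum). Slc32a1, which loads GABA into vesicles, was higher by 0.84 ± 0.17 and 0.86 ± 0.17, and the receptor subunit Gabrb1 by 0.66 ± 0.13 and 0.78 ± 0.13. Gabbr1 of the GABA-B receptor was higher by 0.26 ± 0.098 and 0.40 ± 0.094 at its brightest probe set, but lower (-0.92 and -1.47) at a dimmer one that passed. A further tested Gabbr1 probe set, with a mean signal of 1852, differed by -0.33 and -0.22 and did not pass. The receptor subunit Gabra2 ran from 375 to 2557 in SHR (median 1414) and from 739 to 3758 in SDpcb (median 2732), the groups overlapping, and was lower in SHR (-1.03 ± 0.24 and -0.98 ± 0.25), as was Gabra5 (-0.79 ± 0.23 and -0.84 ± 0.22), singled out after its values were seen. Gabbr1 no longer passed on both scales without hippocampus, ventral striatum, SN/VTA, vermis or dorsal striatum (limma's adjusted p up to 0.123). Gabra5 no longer passed on both scales without ventral striatum (limma's adjusted p = 0.0546).

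Genes of synaptic vesicle release were split. Of 16 tested, 5 were higher and 4 lower on both scales (1 lower without dorsal striatum or ventral striatum, 2 lower without prefrontal cortex, SN/VTA or vermis). Bassoon (Bsn), the scaffold of the release site, ran from 1914 to 5364 in SHR (median 3469) and from 769 to 3034 in SDpcb (median 1554), the groups overlapping. It differed by 1.11 ± 0.11 and 1.25 ± 0.11, adjusted p = 4.94e-05 and 3.29e-05. The vesicle protein synaptophysin (Syp) was higher by 0.52 ± 0.13 and 0.64 ± 0.12 and complexin 1 (Cplx1) by 0.66 ± 0.16 and 0.78 ± 0.15. A second tested Cplx1 probe set differed by 0.55 and 0.037 and did not pass. Synapsin 1 (Syn1), which ties vesicles to actin, was higher by 0.80 ± 0.16 and 0.93 ± 0.16, with a second probe set at -0.18 and -0.30 that did not pass. Synapsin 2 (Syn2), in contrast, was lower at its brightest probe set (-0.82 ± 0.14 and -0.73 ± 0.15). Its other tested probe sets differed by 0.27 and 0.34 and by -0.22 and -0.47 and did not pass. The fusion proteins Snap25 (-0.23 ± 0.085 and -0.34 ± 0.068) and Vamp2 (-0.62 ± 0.17 and -0.53 ± 0.17) were lower too. Syn2, Snap25 and Vamp2 were singled out after their values were seen. Of 7 neurotrophins and receptors, 2 were higher and 0 lower on both scales (1 higher without ventral striatum). Ntrk3 (TrkC), the receptor of neurotrophin 3, ran from 246 to 561 in SHR (median 419) and from 57.5 to 149 in SDpcb (median 110.3), with no overlap. SDpcb was low in all 6 regions, and the difference was 1.92 ± 0.24 and 1.53 ± 0.27, adjusted p = 1.31e-04 and 0.00116. Ntrk2 (TrkB), the receptor of BDNF, was higher by 0.55 ± 0.16 and 0.68 ± 0.17 at its brightest probe set but lower (-0.80 and -0.84) at another that passed, and Bdnf itself differed by -0.73 ± 0.37 and -1.17 ± 0.45, adjusted p = 0.125 and 0.0555. Ntrk2 no longer passed on both scales without ventral striatum (limma's adjusted p = 0.0577). Snap25 no longer passed on both scales without vermis, dorsal striatum or ventral striatum (limma's adjusted p up to 0.136). Vamp2 no longer passed on both scales without dorsal striatum, prefrontal cortex, SN/VTA or ventral striatum (limma's adjusted p up to 0.0857).

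Among 17 neuropeptide and opioid genes tested, 2 were higher and 3 lower on both scales, near the shares of all genes. Tac1, the precursor of substance P in striatal neurons, ran from 19.2 to 2345 in SHR (median 349.6) and from 44.9 to 3735 in SDpcb (median 1177), the groups overlapping. It differed by -1.14 ± 0.18 and -1.28 ± 0.20, adjusted p = 4.64e-04 and 5.10e-04. The granin Scg2 was lower (-0.81 ± 0.14 and -0.78 ± 0.14), while the granin Chgb was higher by 0.42 ± 0.12 and 0.55 ± 0.11 and neuropeptide Y (Npy) by 0.64 ± 0.17 and 0.67 ± 0.16.

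The circadian clock is a loop in which Bmal1 and a partner such as Npas2 drive Per and Cry genes, whose proteins repress that drive, with Nr1d1 and Nr1d2 as repressors of Bmal1. Of 15 clock genes tested, 6 were higher and 3 lower on both scales (1 lower without ventral striatum). The 6 higher genes were Per1, Per2, Dbp, Cry2, Nfil3 and Nr1d1, and the 3 lower were Npas2, Nr1d2 and Tef. Per1 ran from 94.4 to 563 in SHR (median 234) and from 13.3 to 151 in SDpcb (median 56.6), the groups overlapping. SHR was higher in each region, from 0.61 in SN/VTA and 0.61 in ventral striatum to 3.99 in vermis after quantile normalization, where the SDpcb signal was 13.3, and the mean difference was 2.29 ± 0.36 and 1.62 ± 0.40, adjusted p = 4.36e-04 and 0.00805. Per2 ran from 1053 to 2299 in SHR (median 1816) and from 558 to 1045 in SDpcb (median 897), with no overlap. It differed by 1.03 ± 0.19 and 1.09 ± 0.19, adjusted p = 0.00129 and 0.00105. Dbp, an output gene of the clock, ran from 860.0 to 2064 in SHR (median 1258) and from 541 to 1239 in SDpcb (median 760.3), the groups overlapping. Its difference was 0.68 ± 0.12 and 0.74 ± 0.12, adjusted p = 9.24e-04 and 9.04e-04, and Cry2 was higher by 0.43 ± 0.14 and 0.54 ± 0.13. Cry2 no longer passed on both scales without SN/VTA or vermis (limma's adjusted p up to 0.0705). Per1 was under the filter on at least 1 scale without dorsal striatum, prefrontal cortex or ventral striatum, and so not tested there.

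The other clock genes are given by their values, having been singled out after these were seen. Nfil3, a repressor that opposes Dbp, was higher by 1.30 ± 0.22 and 0.77 ± 0.21 and Nr1d1 by 0.56 ± 0.16 and 0.51 ± 0.15. Npas2 (-0.72 ± 0.16 and -0.63 ± 0.16), Nr1d2 (-0.63 ± 0.15 and -0.50 ± 0.15) and Tef (-0.46 ± 0.11 and -0.33 ± 0.11) were lower. A second tested Tef probe set differed by 0.043 and 0.0094 and did not pass. Bmal1 differed by -0.52 ± 0.23 and -0.95 ± 0.24, adjusted p = 0.0833 and 0.00821, past the threshold on the quantile scale alone. Beside SD and WKY, Per2 set SDpcb apart, at 10.75 in SHR, 9.66 in SDpcb, 10.93 in SD and 10.89 in WKY, while the highest level of Dbp was that of SHR, at 10.37 in SHR, 9.63 in SDpcb, 9.42 in SD and 9.88 in WKY. The hour at which the brains were taken is not given in the sources used here, so hour and group cannot be told apart for these genes. Nr1d1 no longer passed on both scales without ventral striatum, vermis or hippocampus (limma's adjusted p up to 0.0715). Nr1d2 no longer passed on both scales without hippocampus or ventral striatum (limma's adjusted p up to 0.0666). Tef no longer passed on both scales without vermis, ventral striatum, prefrontal cortex or SN/VTA (limma's adjusted p up to 0.0883).

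**Figure D5:**
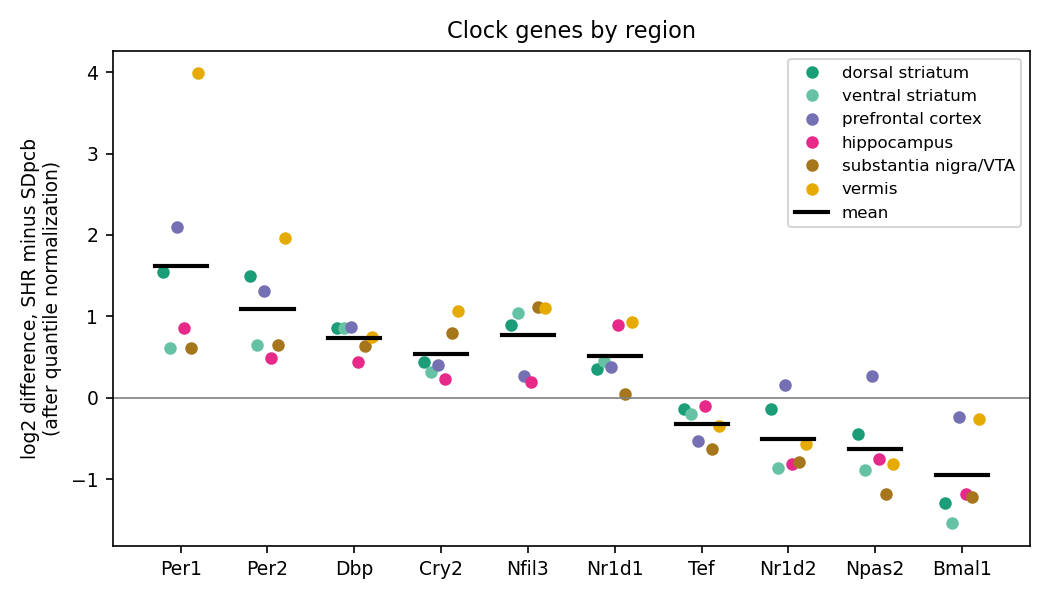
Log2 difference, SHR minus SDpcb, after quantile normalization (y axis) for the 6 clock genes higher and 3 lower in SHR, and Bmal1 (x axis), with 1 point per region and a bar for the mean. Per1, Per2, Dbp, Cry2, Nfil3 and Nr1d1 lie above 0 in all 6 regions, Tef and Bmal1 below 0 in all 6, and the prefrontal cortex points of Nr1d2 (0.15) and Npas2 (0.26) lie on the other side.

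Immediate early genes, which neuronal activity and handling switch on within minutes, showed few differences: of 12 tested, 1 was higher and 0 lower on both scales (2 higher without hippocampus, 3 higher without vermis, 1 lower without prefrontal cortex or vermis). That gene, the nuclear receptor Nr4a3, was higher by 0.98 ± 0.22 and 1.06 ± 0.21, and a dimmer probe set of it differed by -0.86 and -1.28, past the threshold on the quantile scale alone. Fos, singled out after its values were seen, differed by 0.52 ± 0.27 and 0.43 ± 0.27, adjusted p = 0.132 and 0.231, and Arc by 1.24 ± 0.40 and 0.67 ± 0.42, adjusted p = 0.0228 and 0.225. Of 11 genes that respond to glucocorticoids, 2 were higher and 2 lower on both scales (1 lower without hippocampus or ventral striatum). The kinase Sgk1 ran from 3768 to 4736 in SHR (median 4428) and from 5353 to 9216 in SDpcb (median 7698), with no overlap. It differed by -0.74 ± 0.12 and -0.66 ± 0.11, adjusted p = 4.38e-04 and 7.67e-04. Nr3c2, the mineralocorticoid receptor, was lower (-0.50 ± 0.17 and -0.53 ± 0.16). The cell-cycle inhibitor Cdkn1a ran from 202 to 698 in SHR (median 420.4) and from 94.0 to 175 in SDpcb (median 128), with no overlap. Its difference was 1.64 ± 0.22 and 1.22 ± 0.21, adjusted p = 1.80e-04 and 9.39e-04, and the sulphotransferase Sult1a1 was higher by 1.49 ± 0.22 and 1.30 ± 0.21. Nr3c2 no longer passed on both scales without ventral striatum, prefrontal cortex or hippocampus (limma's adjusted p up to 0.109).

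Chromatin genes were a declared interest of the study, which screened genes of epigenetic regulation. Enzymes that add or remove histone methyl groups made the longest chromatin list: of 29 tested, 12 were higher and 3 lower on both scales, with a median above that of all genes by 0.20 as deposited and 0.32 after quantile normalization. Setdb1, which methylates histone H3 at lysine 9, ran from 321 to 516 in SHR (median 363) and from 128 to 208 in SDpcb (median 160.3), with no overlap. It differed by 1.25 ± 0.18 and 0.89 ± 0.16, adjusted p = 2.51e-04 and 0.00139. Kmt2a (MLL), a methyltransferase for lysine 4, ran from 394 to 786 in SHR (median 723) and from 255 to 414 in SDpcb (median 313), the groups overlapping. Its difference was 0.98 ± 0.18 and 0.85 ± 0.17, adjusted p = 9.56e-04 and 0.00245. The demethylase Kdm2a was higher by 0.33 ± 0.088 and 0.45 ± 0.080 and Kdm5c, singled out after its values were seen, by 0.69 ± 0.15 and 0.62 ± 0.14. A second tested probe set went the other way for Kdm2a (-0.19 and -0.090) and for Kdm5c (-0.33 and -0.81), and neither passed. Suv39h2, also an enzyme for lysine 9, was lower (-0.62 ± 0.20 and -0.96 ± 0.20), as was Suz12 of the Polycomb complex PRC2 (-0.75 ± 0.17 and -0.80 ± 0.17), likewise singled out. Suv39h2 no longer passed on both scales without ventral striatum or dorsal striatum (limma's adjusted p up to 0.0815).

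Remodellers, which move nucleosomes with ATP, come in several families. Of 20 tested, 8 were higher and 1 lower on both scales (4 higher without SN/VTA or ventral striatum, 5 higher without hippocampus, 0 lower without dorsal striatum, hippocampus, SN/VTA or ventral striatum, 2 lower without prefrontal cortex). Smarca4 (BRG1), the motor of the SWI/SNF complex, ran from 703 to 1188 in SHR (median 929) and from 239.8 to 558 in SDpcb (median 485), with no overlap. The difference was 1.15 ± 0.15 and 1.09 ± 0.14, adjusted p = 1.56e-04 and 2.20e-04, and a second tested probe set gave 1.44 and 1.07 and passed. Chd8, a helicase implicated in autism, ran from 1014 to 1370.2 in SHR (median 1185) and from 585 to 811 in SDpcb (median 607), with no overlap. It differed by 0.85 ± 0.15 and 0.87 ± 0.15, adjusted p = 7.70e-04 and 9.39e-04. Chd7 was higher by 0.86 ± 0.14 and 0.84 ± 0.14 and Smarcd3 by 0.59 ± 0.14 and 0.58 ± 0.14. A second tested Chd7 probe set differed by 1.14 and 0.42, past the threshold as deposited alone. Of 12 histone deacetylases and sirtuins, 2 were higher and 1 lower on both scales: Hdac2, which represses memory genes in neurons, was lower (-0.70 ± 0.13 and -0.59 ± 0.13), while Sirt2, abundant in myelin, was higher by 0.70 ± 0.17 and 0.73 ± 0.17 and Hdac11 by 0.48 ± 0.12 and 0.50 ± 0.13. Of 13 acetyltransferases and coactivators, 2 were higher and 1 lower on both scales (1 higher without hippocampus, 2 lower without prefrontal cortex). Kat2a (GCN5) was higher by 1.35 ± 0.27 and 0.88 ± 0.26 and Kat6b lower (-0.66 ± 0.18 and -0.80 ± 0.17). Atxn7, a subunit of the SAGA complex, was higher by 0.92 ± 0.18 and 0.71 ± 0.17 at its brightest probe set but lower (-1.89 and -2.15) at another that passed. Of 11 genes of DNA methylation and methyl binding, 1 was higher and 0 lower on both scales (2 lower without prefrontal cortex), the former being Mbd3 of the NuRD complex (1.02 ± 0.18 and 0.88 ± 0.18). Kat2a no longer passed on both scales without hippocampus (limma's adjusted p = 0.0663).

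Pathways on which PCBs are known to act were examined next. The dioxin receptor Ahr and its target Cyp1a1 were too dim to test, Ahr having signals from 8.48 to 140.3 in SHR and 3.01 to 75.7 in SDpcb, and Cyp1a1 from 9.01 to 87.1 and 0.881 to 51.1. Of 5 genes of that pathway tested, Arnt2, a partner of Ahr-like factors in neurons, passed, higher in SHR by 0.58 ± 0.12 and 0.67 ± 0.12. Of 12 thyroid hormone genes, 2 were higher and 0 lower on both scales (1 higher without hippocampus, SN/VTA or ventral striatum, 1 lower without hippocampus). Rxrb, a partner of thyroid hormone receptors, was higher by 0.59 ± 0.17 and 0.55 ± 0.16 and Thrsp, a thyroid hormone responsive gene, by 0.73 ± 0.19 and 0.52 ± 0.17. A second tested Thrsp probe set went the other way, by -0.49 and -0.97, and did not pass. Of 25 genes of calcium release and handling, 4 were higher and 2 lower on both scales (1 lower without dorsal striatum, hippocampus or vermis, 4 lower without prefrontal cortex), close to the shares of all genes. Rxrb no longer passed on both scales without SN/VTA or ventral striatum (limma's adjusted p up to 0.0618). Thrsp no longer passed on both scales without prefrontal cortex, hippocampus, vermis or ventral striatum (limma's adjusted p up to 0.101).

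Of the 3 ryanodine receptors tested, Ryr3 and Ryr1 passed. Ryr3 ran from 272 to 1201 in SHR (median 630.5) and from 76.6 to 696 in SDpcb (median 203), the groups overlapping. It differed by 1.44 ± 0.22 and 1.26 ± 0.21, adjusted p = 3.58e-04 and 7.88e-04. Ryr1 ran from 607 to 1758 in SHR (median 933) and from 76.7 to 761 in SDpcb (median 469), the groups overlapping. Its difference was 1.39 ± 0.26 and 1.28 ± 0.22, adjusted p = 0.00131 and 9.73e-04. At Ryr1 SHR lay with WKY and SDpcb with unexposed SD, at 9.98 in SHR, 8.70 in SDpcb, 8.80 in SD and 9.91 in WKY. Ryr2, the receptor of heart and forebrain, singled out after its values were seen, differed by 0.15 ± 0.24 and 0.23 ± 0.24 and did not pass. Itpr1, the IP3 receptor abundant in Purkinje cells, ran from 2472 to 16724 in SHR (median 6512) and from 4118 to 20870.4 in SDpcb (median 9984), the groups overlapping, and was lower in SHR (-0.51 ± 0.093 and -0.45 ± 0.098). Camk2a, the calcium-dependent kinase of forebrain synapses, was higher by 1.81 ± 0.19 and 1.37 ± 0.18 at a probe set of modest signal; its other probe sets were too dim to test.

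Enzymes that handle reactive oxygen and foreign compounds included the fall of catalase. Cat, the peroxisomal enzyme that breaks down hydrogen peroxide, ran from 651 to 1106 in SHR (median 832) and from 1965 to 6261 in SDpcb (median 4094), with no overlap. SHR was low in all 6 regions, and the difference was -2.204 ± 0.16 and -2.18 ± 0.17, adjusted p = 7.72e-06 and 1.18e-05. It fell just outside the 15 largest and set SHR apart, at 9.71 in SHR, 11.89 in SDpcb, 11.78 in SD and 11.34 in WKY. Of 15 antioxidant enzymes tested, 3 were higher and 2 lower on both scales (1 lower without hippocampus, SN/VTA, vermis or ventral striatum), near the shares of all genes. The secreted glutathione peroxidase Gpx3 ran from 142 to 2525 in SHR (median 284) and from 39.2 to 1248 in SDpcb (median 53.9), the groups overlapping. It differed by 2.03 ± 0.26 and 1.45 ± 0.22, adjusted p = 1.59e-04 and 4.48e-04. Gpx4, which protects membrane lipids, was higher by 0.94 ± 0.16 and 0.87 ± 0.16 and the peroxiredoxin Prdx2 by 0.27 ± 0.10 and 0.35 ± 0.089. Of 19 Nrf2 targets and glutathione transferases, 6 were higher and 1 lower on both scales (0 lower without hippocampus or ventral striatum). The transferase Gstm5 ran from 2527 to 4455 in SHR (median 3200.3) and from 1207 to 2036 in SDpcb (median 1408), with no overlap. Its difference was 1.12 ± 0.11 and 1.25 ± 0.12, adjusted p = 4.37e-05 and 4.02e-05, and Gstm1 was higher by 0.57 ± 0.10 and 0.71 ± 0.10. Gstm genes are close copies of each other, and their probe sets may share signal. Keap1, the repressor of Nrf2, was higher by 0.93 ± 0.16 and 0.77 ± 0.16 and Mgst1 by 0.69 ± 0.16 and 0.64 ± 0.17. Prdx2 no longer passed on both scales without ventral striatum, SN/VTA or hippocampus (limma's adjusted p up to 0.129).

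Lipid genes were read in 2 lists. Of 32 genes of peroxisomes and fatty acid metabolism, 9 were higher and 2 lower on both scales (1 lower without dorsal striatum, hippocampus or ventral striatum). Carnitine palmitoyltransferases admit fatty acids to mitochondria: the neuronal Cpt1c ran from 578 to 1410.0 in SHR (median 1201) and from 283 to 481 in SDpcb (median 404), with no overlap. It differed by 1.42 ± 0.15 and 1.36 ± 0.15, adjusted p = 6.26e-05 and 9.98e-05, and Cpt1a was higher by 0.69 ± 0.13 and 0.79 ± 0.13. Acaa2, the last enzyme of mitochondrial β-oxidation, was higher by 1.44 ± 0.23 and 1.24 ± 0.21 and the desaturase Fads1 by 0.67 ± 0.14 and 0.77 ± 0.14. Of 16 cholesterol synthesis genes, 1 was higher and 4 lower on both scales (2 higher without vermis). The regulator Srebf2 (SREBP2) was lower (-0.70 ± 0.11 and -0.61 ± 0.11), and Insig1, which holds SREBP in the endoplasmic reticulum, ran from 2502 to 5180.0 in SHR (median 3082) and from 4679.8 to 7389 in SDpcb (median 5414), the groups overlapping. Its difference was -0.79 ± 0.11 and -0.69 ± 0.10, adjusted p = 2.75e-04 and 4.23e-04. Insig2 was lower (-0.63 ± 0.15 and -0.58 ± 0.15), with a dimmer probe set at 0.66 and 0.23 that passed as deposited alone. The enzyme Fdps was higher by 0.56 ± 0.12 and 0.69 ± 0.12.

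SHR was bred for hypertension, and genes of the renin-angiotensin system and of blood pressure control were listed for that reason. Only 8 of 22 on the array were above the filter, of which 3 were higher and 2 lower on both scales. Agt, the angiotensin precursor made by astrocytes, ran from 816 to 6733 in SHR (median 1637) and from 443 to 2760.5 in SDpcb (median 695), the groups overlapping. It differed by 1.23 ± 0.20 and 1.27 ± 0.21, adjusted p = 5.29e-04 and 6.93e-04. Npr2, the receptor of C-type natriuretic peptide, was higher by 1.18 ± 0.23 and 0.83 ± 0.21. Guk1, a guanylate kinase of nucleotide metabolism that the list counts among the 3, was higher by 0.80 ± 0.13 and 0.93 ± 0.14. Enpep, the aminopeptidase that trims angiotensin II, was lower (-0.75 ± 0.21 and -1.09 ± 0.21). Medians of Agt in the control groups were 820.3 in SD and 863 in WKY. Ephx2, the soluble epoxide hydrolase studied in hypertension and singled out after its values were seen, differed between SHR and SDpcb by 0.44 ± 0.17 and 0.32 ± 0.17, adjusted p = 0.0497 and 0.148, past the threshold as deposited alone, while it had a low median signal of 54.7 in WKY against 404 in SD.

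Markers of glia and of other cell types were set against the same background. In bulk tissue, fewer cells of a type and less RNA per cell cannot be told apart. Of 13 astrocyte markers, 5 were higher and 0 lower on both scales, while the summed signal of 13 markers ran from 79998 to 105675 in SHR and 73976 to 121528 in SDpcb. Gfap, the intermediate filament of astrocytes, ran from 2192 to 6176 in SHR (median 2779) and from 1096 to 3194 in SDpcb (median 1504), the groups overlapping. It differed by 1.04 ± 0.16 and 1.16 ± 0.17, adjusted p = 4.79e-04 and 3.89e-04. Aldh1l1, a general astrocyte enzyme, ran from 404 to 738 in SHR (median 506) and from 150.1 to 257 in SDpcb (median 198), with no overlap. Its difference was 1.39 ± 0.20 and 1.12 ± 0.19, adjusted p = 2.90e-04 and 8.30e-04. Aldoc was higher by 0.55 ± 0.10 and 0.67 ± 0.087 and the connexin Gjb6 by 0.59 ± 0.17 and 0.71 ± 0.17. Of 11 microglia markers, 3 were higher and 0 lower on both scales (7 higher without vermis), and 8 were higher as deposited, against 31.7% of all genes on that scale. The receptors Csf1r, Trem2 and Fcer1g were higher by 0.86 ± 0.19 and 0.73 ± 0.18, by 1.30 ± 0.23 and 0.75 ± 0.22 and by 0.56 ± 0.16 and 0.66 ± 0.17. Sums of 15 microglia markers overlapped, from 4939.9 to 15036 in SHR and 6395 to 12262 in SDpcb. Trem2 no longer passed on both scales without dorsal striatum (limma's adjusted p = 0.0692).

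Oligodendrocyte genes were divided: of 14 tested, 4 were higher and 2 lower on both scales, with summed signals from 52911 to 94614 in SHR and 47609 to 76465 in SDpcb. The myelin proteins Mag and Mal were higher by 0.89 ± 0.22 and 0.83 ± 0.21 and by 0.71 ± 0.19 and 0.82 ± 0.19, as was the lineage factor Sox10, singled out after its values were seen, by 1.77 ± 0.41 and 1.54 ± 0.40. Ugt8, which makes the galactolipids of myelin, ran from 328 to 1243 in SHR (median 449) and from 293 to 2308 in SDpcb (median 1319.8), the groups overlapping, and was lower (-1.14 ± 0.25 and -1.15 ± 0.23), together with Opalin (-0.79 ± 0.22 and -0.81 ± 0.20). Of 10 endothelial and pericyte markers, 0 were higher and 1 lower on both scales (1 higher without prefrontal cortex or vermis), Pecam1 as given above. The tight-junction gene Cldn5, singled out after its values were seen, differed by 0.058 ± 0.17 and 0.12 ± 0.18, adjusted p = 0.795 and 0.596. Of 13 meningeal and fibroblast markers, 2 were higher and 0 lower on both scales (0 higher without SN/VTA or ventral striatum), namely Ptgds (0.63 ± 0.20 and 0.74 ± 0.21) and Aldh1a2 (1.32 ± 0.26 and 0.95 ± 0.28). Of 6 choroid plexus markers, 0 were higher and 0 lower on both scales (2 higher without vermis). Ttr, the defining gene of that tissue, ran from 211 to 6911 in SHR (median 544) and from 24.6 to 20978 in SDpcb (median 393), the groups overlapping, the highest signal being the SDpcb vermis array and the difference 1.38 ± 0.60 and 1.05 ± 0.46, adjusted p = 0.0773 and 0.0878, and Enpp2 differed by 0.25 ± 0.27 and 0.41 ± 0.25, adjusted p = 0.462 and 0.208. Globin Hbb, a marker of blood, had a difference of -0.28 ± 0.10 and -0.20 ± 0.092, adjusted p = 0.045 and 0.0992, and Ly86, a leukocyte gene, of 0.70 ± 0.22 and 0.21 ± 0.22, adjusted p = 0.0198 and 0.461. Aldh1a2 no longer passed on both scales without SN/VTA or ventral striatum (limma's adjusted p up to 0.0689). Ptgds no longer passed on both scales without SN/VTA, hippocampus or ventral striatum (limma's adjusted p up to 0.0795).

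Of 12 markers of cortical pyramidal neurons tested, 1 was higher and 4 lower on both scales (2 higher without prefrontal cortex, 1 lower without ventral striatum, 2 lower without dorsal striatum), and their median difference minus that of all genes was -0.54 as deposited and -0.54 after quantile normalization. Neurod6, a transcription factor of these neurons, ran from 21.3 to 1635 in SHR (median 294) and from 52.6 to 1796 in SDpcb (median 373), the groups overlapping. It differed by -1.06 ± 0.33 and -1.33 ± 0.39, adjusted p = 0.0192 and 0.018. Neuritin, Nrn1 (-1.06 ± 0.30 and -1.02 ± 0.30), and Lmo3 (-0.79 ± 0.22 and -0.84 ± 0.20) were lower, as was a second Lmo3 probe set (-1.12 and -1.25). Camk2a was the member that was higher. Of 7 hippocampal markers, 1 was higher and 2 lower on both scales (2 higher without vermis, 1 lower without dorsal striatum or ventral striatum): the transcription factor Zbtb20 was higher by 1.17 ± 0.20 and 1.22 ± 0.20 at its brightest probe set, with another at -0.89 and -1.03 that passed on the quantile scale alone, and the pentraxin Nptx1 was lower (-0.80 ± 0.19 and -0.79 ± 0.19). Prox1, a gene of dentate granule cells, differed by -0.081 ± 0.14 and -0.0057 ± 0.14, adjusted p = 0.656 and 0.978. Of 11 interneuron markers, 2 were higher and 0 lower on both scales (1 lower without SN/VTA), Reln by 1.04 ± 0.19 and 1.07 ± 0.19 and Npy as given above. A second tested Reln probe set differed by 0.88 and 0.30, past the threshold as deposited alone. Of 14 medium spiny neuron markers, 2 were higher and 2 lower on both scales (1 higher without dorsal striatum or SN/VTA, 4 lower without vermis) (Rasd2 and Ppp1r1b, and Tac1 and Pde10a). Of 10 cerebellar markers, 1 was higher and 1 lower on both scales (2 lower without hippocampus or prefrontal cortex), with Pcp4, a calmodulin-binding peptide, higher by 0.33 ± 0.096 and 0.41 ± 0.084 and Itpr1 lower. Summed signals of 13 cortical markers ran from 16887 to 44971 in SHR and 19201 to 51406 in SDpcb. No call on both scales was made among 5 markers of midbrain dopamine neurons (1 lower without SN/VTA), 3 of hypothalamus and 4 of antigen presentation (1 lower without prefrontal cortex). Aldh1a1 differed by 0.33 ± 0.25 and 0.44 ± 0.25, adjusted p = 0.291 and 0.178, Gal by 1.44 ± 0.37 and 0.80 ± 0.30, adjusted p = 0.00756 and 0.0506, Crh by -0.025 ± 0.28 and -0.51 ± 0.29, adjusted p = 0.95 and 0.172, RT1-S3 by -0.58 ± 0.23 and -1.08 ± 0.25, adjusted p = 0.0524 and 0.00542 and RT1-N3 by -0.018 ± 0.21 and -0.29 ± 0.19, adjusted p = 0.952 and 0.251. Lmo3 no longer passed on both scales without ventral striatum (limma's adjusted p = 0.0504). Neurod6 no longer passed on both scales without dorsal striatum or ventral striatum (limma's adjusted p up to 0.0706).

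A direct comparison also shows where the models lie together. Genes were counted, and named after their values were seen, at which both SHR and SDpcb lay at least 1 log2 unit on the same side of both SD and WKY after quantile normalization, a description with no test that rests on the same arrays. Of 9132 genes, 11 were higher and 2 lower in both models. The same count was 7 and 13 for SHR with WKY against both Sprague-Dawley groups, and 1 and 5 for SHR with SD. The signal filter used the mean of the SHR and SDpcb arrays alone. Genes high in both models could thus enter through those groups, while genes low in both could be left out. For that reason the 11 and 2 cannot be weighed against each other or against the other pairings. Dusp1, a phosphatase that switches off MAP kinases and an immediate early gene, had levels of 9.94 in SHR, 9.57 in SDpcb, 11.59 in SD and 11.64 in WKY. Its signals ran from 694 to 1350.2 in SHR (median 1035) and from 425 to 1283 in SDpcb (median 721), the groups overlapping, with medians of 2764 in SD and 3127 in WKY, and SHR and SDpcb differed by 0.36 ± 0.16 and 0.37 ± 0.16, adjusted p = 0.0895 and 0.0872. Cfap418 was the other gene lower in both models, at 9.92 in SHR, 9.81 in SDpcb, 11.04 in SD and 11.57 in WKY. Abcb1a, the P-glycoprotein pump of the blood-brain barrier, was higher in both, at 10.25 in SHR, 10.14 in SDpcb, 8.94 in SD and 8.91 in WKY. Igf2, a growth factor of meninges and choroid plexus, stood at 9.17 in SHR, 9.20 in SDpcb, 8.05 in SD and 7.66 in WKY, and the meningeal transporter Slc22a6 at 7.17 in SHR, 7.01 in SDpcb, 5.54 in SD and 5.09 in WKY. Slc13a3 stood at 8.996 in SHR, 9.08 in SDpcb, 7.89 in SD and 7.09 in WKY, and Serping1, the inhibitor of complement C1, at 7.15 in SHR, 7.25 in SDpcb, 5.90 in SD and 5.58 in WKY. Dusp1, Cfap418, Abcb1a, Pla2g12a and Smoc1 kept this pattern on deposited values, and the other 8 did not. Summed endothelial and pericyte markers (15 genes) were also higher in both models by their median over regions, 14404 in SHR, 13223 in SDpcb, 10231 in SD and 8521 in WKY, with overlapping ranges. The same was true of 9 blood cell markers, at 6552 in SHR, 7528 in SDpcb, 4139.5 in SD and 2219 in WKY, whose ranges overlapped those of SD but not of WKY. Summed meningeal and fibroblast markers had medians of 15584 in SHR, 9477 in SDpcb, 11106 in SD and 5340.2 in WKY. Their part in this pattern was not tested.

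The last comparison asked whether the difference between SHR and SDpcb was itself different in striatum, by setting the 2 striatal differences against the other 4 in limma. None of 15521 probe sets passed an adjusted p of 0.05 as deposited, with a smallest adjusted p of 0.265 and 372 (2.40%) at an unadjusted p under 0.05, and none passed on the other 3 scales. Without the ventral striatum pair, which leaves 1 striatal difference, 4 probe sets passed, and with any other pair left out none did. The gene with the smallest p was Bhlhe22, a transcription factor of cortical neurons: SHR minus SDpcb was -2.01 in striatum and -0.33 elsewhere (adjusted p = 0.503). The signals of Bhlhe22 in dorsal striatum were 134 in SHR and 479.8 in SDpcb. Cck, the precursor of cholecystokinin, was -1.45 and 1.93 (adjusted p = 0.554), with signals of 5342 and 2875 in prefrontal cortex. Ppp1r17, a Purkinje cell gene, was 2.37 and -1.03, Tmem178a -1.07 and 0.31, and Vxn -1.01 and 0.69, none of them past the threshold. Region by region, the genes at least 1 log2 unit higher in SHR after quantile normalization numbered from 351 in dorsal striatum to 1244 in SN/VTA, and those lower from 361 in prefrontal cortex to 779 in SN/VTA, single differences with no test.

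A feature the comparison did not use was the base composition of promoters. RefSeq promoters of build GRCr8 were matched by symbol for 7662 of 9132 genes tested. The median share of G and C was 60.7% for genes higher in SHR, 63.3% for genes lower in SHR and 61.7% for all genes, with wide overlap (middle 50% of genes 55.7 to 67.0% and 55.7 to 69.7%), and no test was made. Signal differed between these sets too, with a median log2 level of 9.30 for genes higher, 10.25 for genes lower and 9.24 for all genes. Its part in the base composition was not tested.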

How the data were processed

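RNA was measured on Affymetrix RAE 230 2.0 arrays, 1 per group and region; total RNA was isolated with Qiagen RNeasy and labelled with biotin by the Ovation (Nugen) kit, per the labels' protocols. The deposited values are MAS5 signal intensities, a linear brightness per probe set, per the submitters' processing notes; the MAS5 version is not given in the sources used here. The trimmed mean was about the same on all arrays while medians differed. Scanner files were not used here, so background correction could not be redone.

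The 57 control probe sets were left out, leaving 31042. Of these, 20826 had 1 gene symbol in GEO's platform annotation, 436 had several and 9780 had none; 20758 of those with 1 symbol were matched to RefSeq by Entrez ID. The brightest probe set with that symbol alone stood for a gene. Differences of log2(signal + 1) were tested by linear models (limma 3.58.1, R 4.3.3) with group, and region as a block (5 residual degrees of freedom), eBayes with trend, two-sided, Benjamini-Hochberg over 15521 probe sets whose mean over the 12 arrays was at or above the median (a signal near 111), at an adjusted p of 0.05. The fit was repeated after quantile normalization of the 24 arrays. A fold is on the log2(signal + 1) scale and understates that of dim genes. The fits were tested on simulated data. The number of arrays limits the precision. Pairing was by region.

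The comparison, the 45 gene lists and the tests were chosen with earlier results of these data known. Genes were named by a rule: the 15 largest rises and falls of 1 sign in all 6 regions on both scales; up to 4 members per list past the test, smallest adjusted p first, or 2 as values; up to 5 for the striatum term; and 8 label checks. These were named after their values were seen: Abcb1a, Ahr, Arc, Bdnf, Bmal1, Cfap418, Cldn5, Creb1, Cyp1a1, Dusp1, Dync1h1, Ephx2, Fos, Gabra5, Hyou1, Igf2, Isca1, Kdm5c, Macf1, Mycbp2, Nfil3, Npas2, Nr1d1, Nr1d2, Oxt, Pla2g12a, Pmch, Pomc, Psma1, Psma3, Ryr2, Serping1, Slc13a3, Slc22a6, Smoc1, Snap25, Sox10, Suz12, Syn2, Tef and Vamp2. Alternatives were other scalings, pseudocount, filters, trend, samples fitted, block and leaving out a region; the closing section gives their effect. Apart from the base composition of RefSeq promoters, genome positions were not used here.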

Additional observations from a re-analysis of the deposited data

Results flagged for a closer look

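For each gene of the report that was tested, 198 in all, the 6 regional log2 differences as deposited (SHR minus SDpcb) were searched for a region far from the other 5, by Dixon's ratio at its usual critical value. Chance alone picks out about 1 in 20 such groups, and 14 genes were picked out. In dorsal striatum it was Nrn1 (-3.30, the other 5 regions -0.98 to -0.46). In hippocampus it was Pcp2 (3.65, the other 5 regions 0.52 to 1.34). In prefrontal cortex this was the case for Ift140 (1.09, the other 5 regions 1.69 to 2.02) and Mal (1.95, the other 5 regions 0.048 to 0.68). In SN/VTA this was the case for Adrm1 (2.62, the other 5 regions 1.21 to 1.60), Chrm4 (3.16, the other 5 regions 0.25 to 1.27), Cplx1 (1.71, the other 5 regions 0.23 to 0.69) and Grin2c (2.45, the other 5 regions 1.12 to 1.45). In ventral striatum this was the case for Agt (2.45, the other 5 regions 0.72 to 1.29) and Pls1 (-4.56, the other 5 regions -1.97 to -1.20). In vermis this was the case for Harbi1 (4.49, the other 5 regions 1.89 to 2.58), Hspa5 (1.60, the other 5 regions 0.58 to 0.89), Vamp2 (0.33, the other 5 regions -1.04 to -0.57) and Zfhx2 (3.93, the other 5 regions 1.95 to 2.62). Vamp2, lower in SHR on average, was higher there in vermis. Those of the 14 that passed on both scales still did with that region left out.

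Of 8 array measures by group examined in the same way, 4 were picked out, all in vermis. The median signal of the SDpcb vermis array was 126, against 89.0 to 94.8 in the other 5 SDpcb arrays, and 25.7% of its probe sets were under a signal of 50, against 38.9 to 40.7%. The median log2 signal of 18 hybridisation control probe sets, which read RNA added in fixed amounts, was 13.75 on that array against 12.37 to 12.79, and 13.51 on the SHR vermis array against 12.83 to 13.06. The WKY vermis array, not examined in this way, had a median signal of 153 against 109 to 122 in the other WKY arrays. Its controls stood at 13.57 against 12.09 to 12.27. In SD, vermis had the highest controls (14.26) but not the highest median signal (178, against 184 in dorsal striatum). Without the vermis pair, 7011 probe sets passed as deposited and 5148 on both scales.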

How the results depend on the processing

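The count of 7211 probe sets past the threshold as deposited was 13032 with no filter, 3814 among the brightest 25%, where fewer were tested, and 4291 without region as a block, that is without the pairing. On both scales 5228 became 3361 among the brightest 25% and 2746 without the block. Leaving out 1 region at a time gave 5582 (without ventral striatum) to 7292 (without prefrontal cortex) as deposited, 3811 (without ventral striatum) to 5330 (without prefrontal cortex) on both scales, and 0 to 4 for the striatum term. The other alternatives run (quantile, loess, median centring, a pseudocount of 16, no trend, all 24 arrays) left these counts within 1.5 times. Of 198 genes named, 187 kept direction and call after quantile normalization, 184 after loess, 119 after median centring and 130 without the block, under which the other 68 fell below the threshold. Median centring reversed 30: Abcb1a (-0.60), Aldoc (-0.088), Arnt2 (-0.051), Cfap418 (-0.58), Chgb (-0.21), Cldn5 (-0.58), Cry2 (-0.21), Dnajb1 (-0.15), Elavl3 (-0.032), Ephx2 (-0.19), Fcer1g (-0.078), Fdps (-0.073), Gabbr1 (-0.37), Gjb6 (-0.043), Gstm1 (-0.063), Hdac11 (-0.16), Igf2 (-0.57), Kdm2a (-0.30), Nr1d1 (-0.080), Ntrk2 (-0.083), Pcp4 (-0.31), Ppp1r1b (-0.17), Prdx2 (-0.37), Psmb3 (-0.17), Ptgds (-0.010), Rasd2 (-0.0078), Rpl7 (-0.20), Rxrb (-0.048), Smarcd3 (-0.044) and Syp (-0.12). It takes the same amount off every gene, and its median over all genes was -0.47. Detection calls were not used here, so how far a dim signal stood above background was not measured.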
